A study of Bos taurus with 252 samples.

Results

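Tildipirosin (TILD) and tulathromycin (TULA) are the 2 macrolide antimicrobials of this study of cattle. They were compared through the whole blood RNA of the steers that received them, chosen by the treatment in the sample labels, which gave 12 of 42 steers, 6 for each drug, and 72 of 252 libraries. Blood was drawn into PAXgene RNA tubes on day 0, before the drug was given, and from the same steers 3, 7, 14, 21 and 56 days later. The drugs were given on day 0 to healthy crossbred steers, whose age is not given in the sources used here, as a single injection under the skin of the neck, each at its own label dose. Untreated negative control steers (NC, n = 6) were bled on the same days and serve only as context. All 3 groups had received tildipirosin at the start of backgrounding, weeks before they arrived, together with vaccines, a hormone implant and antiparasitic drugs. Each treatment filled 1 pen, which for each drug also held untreated pen mates that were not sequenced, and the TULA steers were processed before the TILD steers on every sampling day. The doses of the drugs differ, so the compound, its dose, the pen and the place in the processing order cannot be told apart, and p-values measure the spread between the steers of these pens.

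Macrolides bind the large subunit of the bacterial ribosome and block the tunnel through which a growing peptide leaves. They are weak bases that collect in the lysosomes of phagocytes and persist in lung tissue, which is why a single injection is used against bovine respiratory disease, and effects of tulathromycin and other macrolides on neutrophil survival, inflammatory mediators and phospholipid storage have been described in cell and animal studies. Tulathromycin is a semi-synthetic triamilide derived from the azalides, with a nitrogen atom built into its lactone ring, while tildipirosin is derived from tylosin, has the larger lactone ring of that family and carries piperidine groups. The comparison asks whether blood RNA differed between steers given one or the other, on each day and in the change from day 0. It was 1 pair of compounds, tested on 6 days and for 5 changes.

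The 6 TULA steers (Tula3, Tula4, Tula5, Tula6, Tula7 and Tula8) and 4 TILD steers (Tild2, Tild3, Tild5 and Tild7) were sequenced on lane 2. Tild8 and Tild10 were on lane 3, and all NC steers on lane 1. Library totals were lower in TILD, with totals of 26.1 to 44.2 M counts and a median of 33.6 M, than in TULA, with 28.4 to 69.2 M and a median of 45.9 M. This difference was present on day 0 (FDR = 0.00324, exact permutation test, two-sided, n = 6 and 6) and on every later day (FDR up to 0.0216), and its part in the results below was not tested. The libraries carried the markers of whole blood: a median CPM (counts scaled to the library total) above 1 was reached by 30 of 31 T cell genes, 19 of 19 B cell genes, 16 of 17 monocyte genes and 25 of 27 erythroid genes. It was reached by 21 of 31 neutrophil genes, and by 3 of 14 genes of skin and hair. Hemoglobin genes took between 0.00677% and 25.5% of a TILD or TULA library, and Tild3 had the highest share of the TILD steers on days 3, 7 and 14 (25.5%, 15% and 8.17%). The share was 0.0506% at the median in TILD and 0.357% in TULA on day 0, before either drug (FDR = 0.104), and 1.15% and 8.91% on day 14 (FDR = 0.104, exact permutation test).

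Few genes separated TILD from TULA on any single day. Of 19056 genes tested by edgeR's quasi-likelihood test at an FDR of 0.1, 1, 4, 6, 8, 0 and 1 passed on days 0 to 56 in that order (0.00525%, 0.021%, 0.0315%, 0.042%, 0% and 0.00525%). Unadjusted p-values under 0.05 were reached by 1182, 1570, 1776, 2564, 1951 and 1481 genes. The count depended on the test, since DESeq2's Wald test called 75, 162, 304, 943, 345 and 242 genes. It also depended on the steers. With 1 steer left out, the day 14 count was 309 without Tild2, 50 without Tula3, 5 without Tild7, 1 without Tild8 and 0 without any of the other 8 steers, while the other days ranged from 0 to 12. Within lane 2 alone, with 4 TILD and 6 TULA steers, the counts were 0, 0, 3, 5, 0 and 4. The drugs cannot be called alike from these counts. Of 9390 genes with a mean of at least 10 CPM, the 95% interval of the difference lay within 2-fold in either direction for 86.1% to 90.7% on the 6 days, and within 1.5-fold for 58.6% to 75.5%.

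The 14 genes that passed on at least 1 day had the same sign of difference on day 0, before the drugs were given. For some the day 0 difference was small, as for NXF1 (log2 0.1, FDR = 0.991) and PROSER1 (log2 -0.12, FDR = 0.916, edgeR). None of the 14 passed a test of the change from day 0. At most 0.0105% of all genes passed such a test on a day, so this says little about the 14. LPIN3, a lipin that converts phosphatidic acid to diacylglycerol, passed on 4 days. Its level on day 0 was between 11.8 and 19 CPM in TILD, with a median of 14.4, and between 5.27 and 7.5 in TULA, with a median of 6.76. The groups did not overlap, as for 0.352% of all genes on that day, and NC steers lay between 3.29 and 8.96 CPM. On day 3 LPIN3 was between 14.3 and 22.5 CPM in TILD, with a median of 17.2, and between 5.86 and 9.21 in TULA, with a median of 7.21, again without overlap (0.504% of all genes). The log2 difference was 1.16 on day 0 (95% interval 0.85 to 1.46, FDR = 0.0423) and 1.29 on day 3 (0.96 to 1.62, FDR = 0.0246, edgeR). It lay between 1.05 and 1.24 on the later days, and the groups stayed apart on all 6 days. The mean change from day 0 differed between the drugs by -0.02 on the log2 scale, with an interval from -0.26 to 0.23.

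The 3 transcripts LOC101906923, LOC112446385 and LOC101904590 had the same course as LPIN3, with all TILD steers above all TULA steers on each of the 6 days. LOC101906923, a pseudogene, was between 3.95 and 7.89 CPM in TILD on day 7, with a median of 5.49, and between 1.13 and 1.87 in TULA, with a median of 1.52. The groups did not overlap, which on day 7 held for 1.01% of all genes, and the log2 difference of 1.86 (1.39 to 2.33) passed the test (FDR = 0.0139). On day 0 the medians of LOC101906923 were 3.06 and 0.932 CPM, also without overlap (FDR = 0.299). The long noncoding LOC112446385 had medians of 1.07 CPM in TILD and 0.24 in TULA on day 7, a log2 difference of 2.04 (1.52 to 2.57, FDR = 0.0139). The pseudogene LOC101904590 had medians of 2.98 and 0.732 CPM on day 14, a log2 difference of 1.88 (1.34 to 2.42, FDR = 0.0514). For these transcripts NC medians lay nearer to TULA than to TILD, with 1.17, 0.174 and 0.524 CPM on the same days.

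Day 14 had the most genes past the test, with 4 higher and 4 lower in TILD (0.021% of genes in each direction). HIF1A, the oxygen-regulated subunit of the hypoxia-inducible transcription factor, was between 37.5 and 48.7 CPM in TILD on that day, with a median of 40.7. In TULA it was between 56.5 and 70 CPM, with a median of 59.2, and the groups did not overlap, as for 1.1% of all genes. The log2 difference was -0.55 (-0.74 to -0.37, FDR = 0.0707). On day 0 the HIF1A ranges overlapped, at 64.6 to 87.6 CPM in TILD and 69.8 to 108 in TULA. NC on day 14 lay between 43 and 73.3 CPM, which held the whole TULA range. The TILD range overlapped that of NC only in part, and the TILD median lay below the lowest NC steer. SCAMP1, a membrane protein of secretory vesicles, showed the same direction, between 11.7 and 14.9 CPM in TILD and between 18.2 and 22.8 in TULA, with medians of 12.8 and 19.5 and a log2 difference of -0.64 (FDR = 0.0704). PROSER1 was lower as well, with medians of 18.1 and 25.3 CPM and no overlap (log2 -0.53, FDR = 0.0835). The largest difference among the 4 lower genes was that of C18H19orf47, an open reading frame of unknown function. Its medians were 46.4 CPM in TILD and 133 in TULA (log2 -1.42, -1.82 to -1.03, FDR = 0.0514). SCAMP1 also did not overlap on days 7 and 21, as for 1.01% and 0.95% of all genes. Its log2 differences on these days were -0.74 and -0.75 (FDR = 0.32 and 0.316, edgeR). HIF1A differed by -0.65 on day 7, with overlap (FDR = 0.4, edgeR).

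NXF1, which carries messenger RNA out of the nucleus, went the other way on day 14. It was between 30.7 and 124 CPM in TILD, with a median of 86.8, and between 6.63 and 18.4 in TULA, with a median of 13.3, without overlap (log2 2.68, 1.8 to 3.56, FDR = 0.0707). NXF1 varied widely between libraries of the same group, and on day 0 and day 56 the medians were 27.1 against 20.4 and 24.1 against 22.5 CPM with overlapping ranges. Of the 14 genes it was the only one whose sign was not the same on all 6 days, with a log2 difference of -0.3 on day 7 and -0.18 on day 56.

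A pair of genes reached very large log2 differences from near-absent counts. ATRAID, named for its induction by retinoic acid, was between 0.0439 and 12.5 CPM in TILD on day 7, with a median of 5.4, and between 0.0188 and 0.0732 in TULA, with a median of 0.0333. The ranges overlapped because 1 TILD steer (Tild2) was at 0.0439 CPM, and the sums were 1110 counts in TILD and 12 in TULA (log2 7.16, FDR = 0.0803). LOC506868 was between 1.16 and 3.85 CPM in TILD on day 56 and between 0 and 0.0423 in TULA, where 3 of 6 libraries had no count, with sums of 570 and 5 counts and no overlap, as for 0.777% of all genes (log2 7, FDR = 0.00211). On the other days LOC506868 had sums of 133 to 576 counts in TILD and 31 to 137 in TULA, and the ranges overlapped. The other genes past the test were LOC785386 on day 3 (log2 0.71, FDR = 0.0684) and, on day 7, LOC107132395 (log2 1.71) and the pseudogene LOC104972830 (log2 2.2), both with an FDR of 0.0803, LOC104972830 being named after its values were seen.

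**Figure D1:**
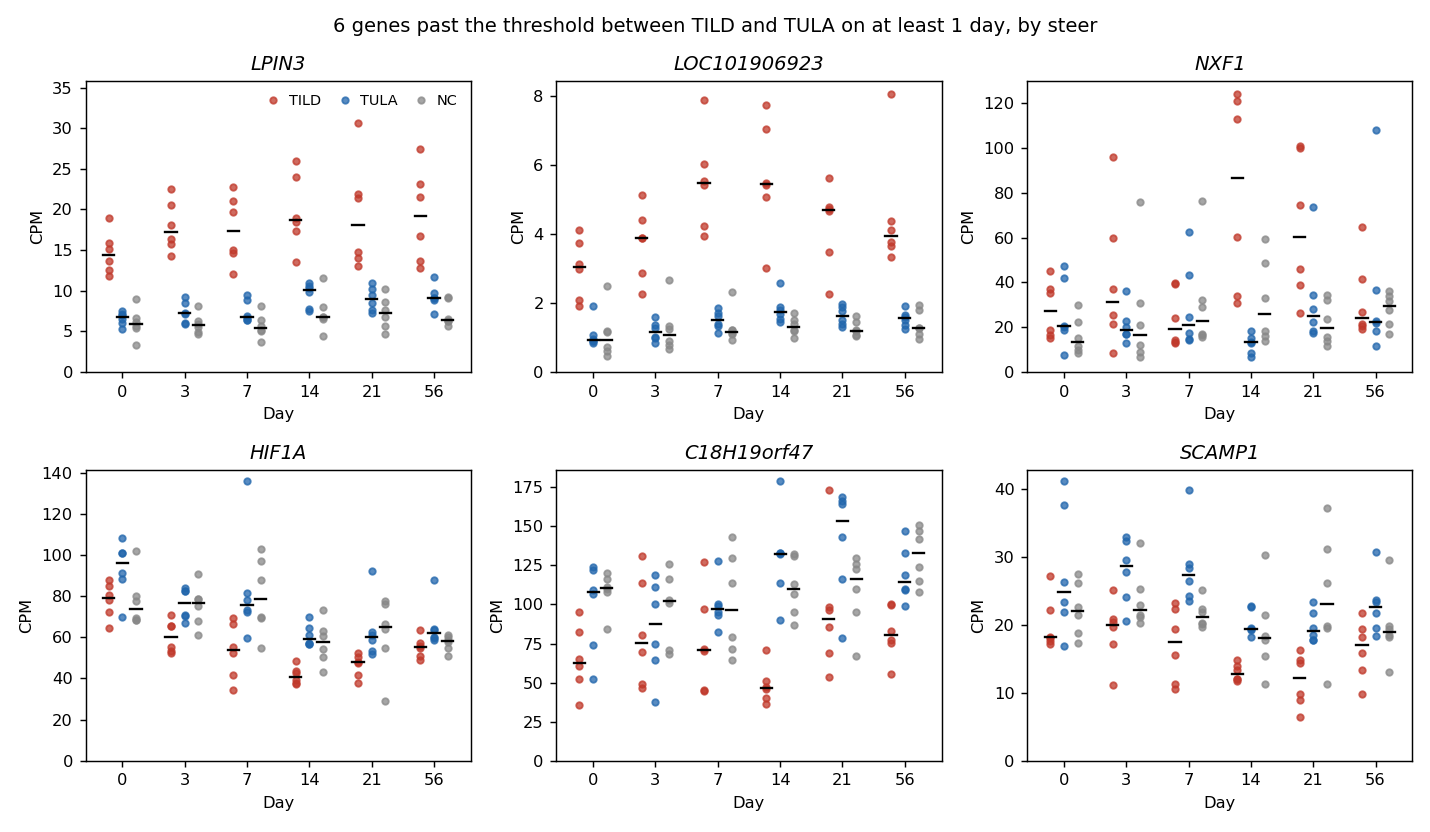
CPM (vertical axes, linear) of 6 genes by day (horizontal axes) in each steer of TILD (red), TULA (blue) and NC (grey), with a black bar at the median of the 6 steers. LPIN3 and LOC101906923 lie higher in TILD than in TULA on every day, day 0 included. NXF1, HIF1A, C18H19orf47 and SCAMP1 separate the drugs on day 14, and SCAMP1 also on days 7 and 21.

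Taken over days 3 to 56 together, 881 genes (4.62%) had a different mean level in TILD and TULA, 351 higher and 530 lower in TILD. Their median difference was 0.43 on the log2 scale. The test was limma voom at an FDR of 0.05, with a single correlation of 0.318 between libraries of a steer for all genes. For genes that stay more alike within a steer than this, the p-values are too small. Of the 881, 876 (99.4%) had the same sign on day 0, against 71.6% of all genes tested, and their median difference in that direction on day 0 was 0.33. None of the 881 passed the test of the mean change from day 0 by edgeR, but neither did any other of the 19056 genes. An unadjusted p under 0.05 in that test was reached by 43 of the 881 and by 785 of all genes. The test thus says little about the 881 in particular. LOC112446385, LPIN3, LOC101906923 and LOC101904590 were among the 10 genes with the smallest p, as was RHEBL1, a small GTPase related to the mTOR activator RHEB. RHEBL1 differed by 1.05 (0.81 to 1.3, FDR = 1.82e-08), by 1.09 on day 0 (0.6 to 1.59, FDR = 0.449), and in its mean change by -0.05 (-0.37 to 0.28). With counts summed over these days per steer, a fit added after seeing the data, 310 genes passed, of which 242 were among the 881.

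Genes annotated as pseudogenes were frequent among those higher in TILD. They made up 557 of the genes tested (2.92%), 91 of the 351 genes higher in TILD (25.9%) and 2 of the 530 lower genes (0.377%). Across all 557 the median log2 difference was 0.23 on day 0 and between 0.23 and 0.29 on the later days, against -0.04 to -0.01 for protein-coding genes. The difference in the change from day 0 had a median of 0.02 to 0.11 over the pseudogenes on the 5 days. Pseudogenes had a median level of 0.388 CPM and can share reads with their parent genes, so that single values are uncertain, and their summed share of the counts did not pass a test between the drugs on any day (FDR = 0.299 to 0.851, exact permutation test). On day 0 that share had a median of 0.621% in TILD and 0.577% in TULA. Its means were 0.613% and 0.654%, with Tula7 the highest TULA steer at 1.07%.

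The change from day 0 within steers was the comparison that takes the difference before treatment away. By edgeR with the steer as a block, 0 of 19056 genes (0%) passed the test of a different change in TILD and TULA on day 3, 7, 14 or 21. Unadjusted p-values below 0.05 numbered 809, 906, 943 and 768, and the smallest FDR values were 0.702, 0.924, 0.789 and 1. On day 56, 2 genes passed (0.0105%), and 489 had p below 0.05 before adjustment. Neither the mean change over days 3 to 56 nor the 5 changes taken jointly gave a gene past the threshold, while 785 and 662 had p below 0.05. By limma voom the counts were 0, 2, 0, 0 and 0 on the 5 days, and by a likelihood ratio test after ComBat_seq by lane they were 1, 0, 2, 0 and 2. Of the 9390 genes with at least 10 CPM, the 95% interval of the difference in change lay within 2-fold for 87.5% to 89% and within 1.5-fold for 69.2% to 75.2%. For the mean change it lay within 2-fold for 92.2% and within 1.5-fold for 82.5%. For the remaining genes these data leave a larger difference possible.

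The genes past the test on day 56 were RAB3C and ODF3L2. RAB3C, a GTPase of regulated vesicle release, was between 1.11 and 12.6 CPM in TILD on day 0, with a median of 3.04, and between 0.78 and 4.08 in TULA, with a median of 1.81. On day 56 it was between 0.734 and 4.75 CPM in TILD, with a median of 0.992, and between 1.65 and 12.6 in TULA, with a median of 10.2. The ranges overlapped on both days, and the overlap on day 56 came from Tild10, at 4.75 CPM, and from Tula3 and Tula5. RAB3C fell in TILD (log2 -1.6, FDR = 0.0218) and rose in TULA (log2 2.22, FDR = 0.00127), and the difference was -3.81 (-5.34 to -2.28, FDR = 0.0868). In NC the change was 0.11 (-1.43 to 1.64). ODF3L2, a relative of a sperm tail protein, rested on few counts. It had 15 counts in TILD and 0 in 6 TULA libraries on day 0, and 0 in 6 TILD libraries and 40 counts in TULA on day 56 (FDR = 0.0868). The fitted log2 difference of -10.05 depends on how absent counts are treated. Leaving out 1 steer brought the number of genes past the test on day 56 from 2 to 0 for 11 of the 12 steers, Tild7 being the exception, and within lane 2 it was 0.

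Genes with the smallest p in the changes on the other days did not pass, and are given as values. RAB37, a GTPase of secretory granules, differed in its change on day 7 by 0.52 (0.28 to 0.76, FDR = 0.924), with medians of 47.6 and 67 CPM in TILD and 52.4 and 54 in TULA on days 0 and 7. CCDC15 differed on day 14 by -4.18 (-6.06 to -2.31, FDR = 0.789), with medians of 8.78 and 0.327 CPM in TILD and 3.14 and 3.09 in TULA. On day 3 they were IQCD (1.06, 0.56 to 1.55) and the near-absent PLEK2 and LOC112447630, on day 7 IL2 and LOC104972578 below 1 CPM, on day 14 ZSCAN23 and ERMP1 (-0.39, -0.6 to -0.19), on day 21 LOC101902366 and BOLA-DQA2, and on day 56 GAREM1 (-1.19, -1.74 to -0.64, FDR = 0.385).

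Within each drug, in contrast, a large share of the genes changed from day 0. In TILD 1597 genes (8.38%), 5082 (26.7%), 8129 (42.7%), 9006 (47.3%) and 6523 (34.2%) changed on the 5 later days in order. In TULA the counts were 1648 (8.65%), 2781 (14.6%), 7853 (41.2%), 8381 (44%) and 7130 (37.4%). These changes hold whatever happened to the steers over the weeks after arrival, since the untreated NC steers also changed, in 12 genes (0.063%), 858 (4.5%), 6304 (33.1%), 5295 (27.8%) and 6488 (34%). In a fit with all 3 groups the NC counts were 55, 1020, 6411, 5425 and 6520. The test of the mean macrolide change against that of NC in this fit found 0, 0, 0, 501 and 0 genes by edgeR, and 1508, 1143, 1395, 3273 and 587 had p below 0.05. The 3-group fit was chosen after seeing the data, and NC was sequenced on a lane that held no TILD or TULA steer. The 501 genes of day 21 were 93 higher and 408 lower against NC. On day 3 the TILD count was 258 without Tild3, 300 without Tild2, 635 without Tild10, 971 without Tild5 and 2424 without Tula3. The TULA count on day 3 was 913 to 1072 without Tula3, Tula4, Tula6 or Tula7, and on day 7 it was 1768 without Tula6 and 1845 without Tula4.

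**Figure D2:**
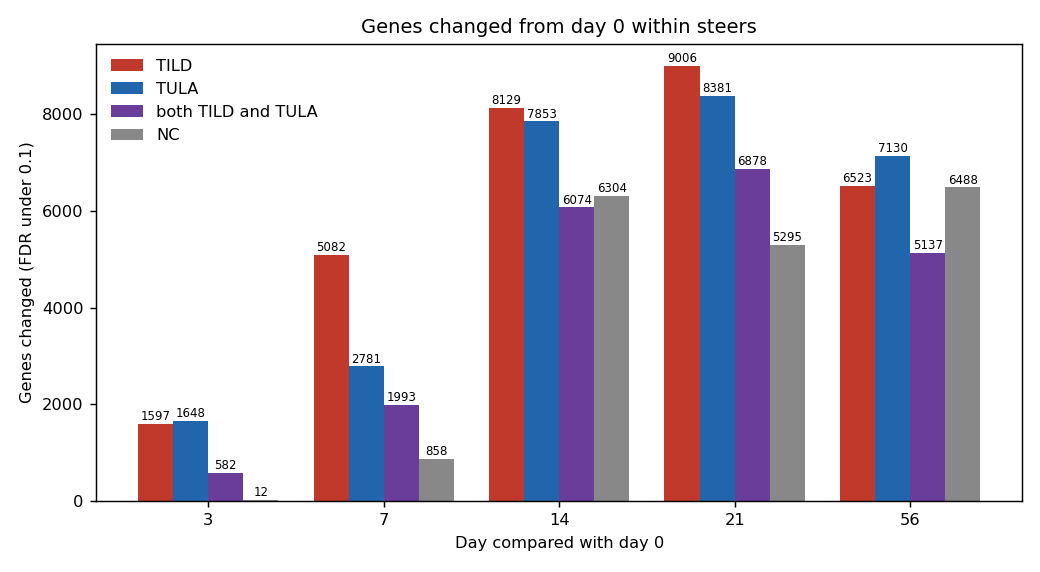
Number of genes past an FDR of 0.1 for the change from day 0 (vertical axis) on each later day (horizontal axis) in TILD (red), TULA (blue), both macrolides (purple) and NC (grey, from its own fit). The bars rise from 1597, 1648, 582 and 12 genes on day 3 to 9006, 8381, 6878 and 5295 on day 21.

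Genes that changed in both drugs nearly always moved the same way. They numbered 582, 1993, 6074, 6878 and 5137 on the 5 days, and 580, 1990, 6062, 6874 and 5131 of them had the same direction. As a share of the genes changed in TILD these were 36.4%, 39.2%, 74.7%, 76.4% and 78.8%, and as a share of those changed in TULA 35.3%, 71.7%, 77.3%, 82.1% and 72%. In NC, 90.3%, 96.7%, 99%, 95.6% and 99.6% of them had the same sign. Across the 9390 genes with at least 10 CPM the changes in TILD and TULA had a Pearson correlation of 0.27, 0.61, 0.73, 0.69 and 0.76, a description across genes that share libraries and are not independent.

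**Figure D3:**
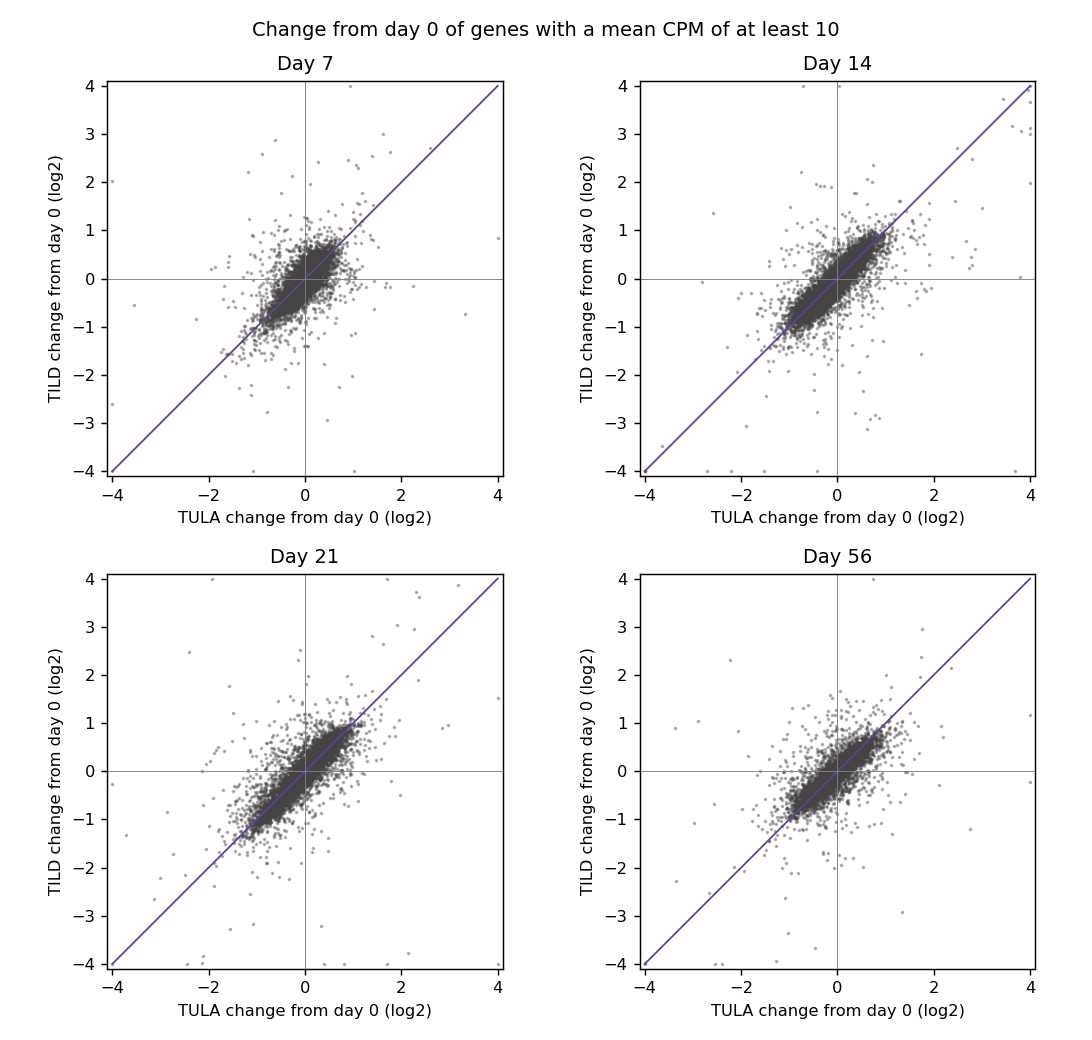
Log2 change from day 0 in TULA (horizontal axes) and TILD (vertical axes) of the 9390 genes with a mean of at least 10 CPM on days 7, 14, 21 and 56, with values beyond 4 in either direction drawn at the edge and the line of equal change in purple. Most genes lie along the line, and the correlation is 0.61 on day 7 and 0.76 on day 56.

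Of these, 431 genes changed in both drugs on all 5 days, 152 upward and 279 downward, and every one of the 431 kept 1 direction in both drugs. None passed a test of the difference in change, which at most 0.0105% of all genes did on a day. In NC 421 of them also changed on day 14, as did 33.1% of all genes. The genes named here were chosen after their values were seen. PDK4, a kinase that shuts off pyruvate oxidation in fasting, had the lowest mean change of those with at least 10 CPM, -1.75 in TILD, -1.74 in TULA and -1.76 in NC. On day 0 PDK4 was between 11.8 and 35.8 CPM in TILD, with a median of 23.7, and between 18.2 and 27 in TULA, with a median of 21.7. On day 14 it was between 3.46 and 11.1 CPM in TILD and between 2.22 and 8.66 in TULA, with medians of 5.95 and 6.43. PDK4 was picked for its low change, so its separation from day 0 is no added evidence. The mean changes of the drugs differed by 0 (-0.65 to 0.64). CPT1A, which admits fatty acids into mitochondria, had a mean change of -1.13 in TILD, -0.91 in TULA and -1.19 in NC, and the interleukin 1 receptor chain IL1RAP one of -1.24, -1.2 and -1.38. Among the genes that rose, the B cell kinase BLK had a mean change of 0.72 in TILD, 0.94 in TULA and 0.67 in NC, with medians from 156 to 263 CPM in TILD and from 88.7 to 221 in TULA between days 0 and 14. FOXP3, the transcription factor of regulatory T cells, had a mean change of 0.71, 0.78 and 0.41, and the T and NK cell receptor CD7 one of 0.71, 0.88 and 0.64.

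Genes past the threshold in opposite directions were few, 26 genes on 27 occasions, and 16 of them had a mean below 1 CPM. Only 4 had at least 10 CPM. HMGCS1, which makes a precursor of sterols, was between 25.9 and 39.7 CPM in TILD on day 0, with a median of 31.3, and between 12.6 and 36.8 in TULA, with a median of 24.5. On day 14 it was between 12 and 28.2 CPM in TILD, with a median of 18.3, and between 22 and 51.2 in TULA, with a median of 39.5. HMGCS1 thus fell in TILD (log2 -0.73, FDR = 0.0356) and rose in TULA (log2 0.64, FDR = 0.0695), with overlap of the drugs on both days. The difference of -1.37 (-2.16 to -0.57) did not pass over all genes (FDR = 0.789, edgeR). RGS2, a brake on G protein signaling, showed 0.39 and -0.52 on day 14, and VTI1B, a vesicle fusion protein, 0.14 and -0.13. HMGCS1, RGS2 and VTI1B were chosen after their values were seen.

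A few genes were present in some libraries and nearly absent in others. LYST, a regulator of lysosome size and trafficking, was among the 5 expressed genes with the lowest change in TILD on day 3. It was between 28 and 96.7 CPM in TILD on day 0, with a median of 72, and between 31.9 and 99.2 in TULA, with a median of 85.2. On day 3 it was between 0 and 4.71 CPM in TILD, with a median of 0.108. In TULA it was between 6.93 and 74.6 CPM, with a median of 44.5, without overlap, as for 0.504% of all genes. NC on day 3 lay between 9.22 and 87.8 CPM. LYST fell in TILD (log2 -6.82, FDR = 0.02), and in TULA the change was -0.42 (FDR = 0.907). The difference in change of -6.41 (-10.41 to -2.4) did not pass (FDR = 1), nor did the difference on day 3 (FDR = 0.502). By day 14 LYST had fallen in both drugs, to medians of 0.235 and 1.11 CPM, and NC had a median of 0.276.

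The named gene groups are described by how many of their members passed the test for the change from day 0, on the 5 later days in order. These counts are to be read beside the shares of all genes that did. The shares for TILD and TULA are given with the lysosomal genes and serve for every group. Those for NC are given with the sterol genes (higher) and the monocyte genes (lower). In no group did a member pass a test of TILD against TULA on a day or in its change. Of all genes at most 0.042% passed on a day and 0.0105% in a change, so this says little about the groups. The smallest FDR of a member in the tests of the difference in change was 0.789. In bulk blood, fewer cells of a type and less RNA per cell cannot be told apart.

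Lysosomal genes, the compartment in which macrolides collect, moved in both directions. Of 32 tested, 2, 1, 6, 15 and 5 rose and 2, 7, 13, 6 and 8 fell in TILD, while 1, 1, 7, 7 and 5 rose and 1, 2, 7, 5 and 5 fell in TULA. Among all genes 4.41%, 13.5%, 21.2%, 22.5% and 17.3% rose and 3.97%, 13.2%, 21.5%, 24.8% and 16.9% fell in TILD. In TULA 3.76%, 7.55%, 21.2%, 22.6% and 18.9% of all genes rose and 4.89%, 7.04%, 20%, 21.4% and 18.6% fell. The median difference in change over the group lay between -0.05 and 0.09 on the log2 scale, against -0.03 to 0 over all genes, and the interval was within 2-fold for 27 or 28 of the 32 genes. CTSD, the aspartyl protease cathepsin D, rose in TILD on day 21 by 0.44 and had a change of 0.19 in TULA that did not pass, a difference of 0.26 (-0.09 to 0.61). CTSB, the cysteine protease cathepsin B, fell in TILD on day 14 by 0.39 on the log2 scale and had a change of -0.23 in TULA. The following genes were chosen after their values were seen. ATP6V1A, the catalytic subunit of the proton pump that acidifies lysosomes, fell in both drugs on all 5 days, by 0.84 and 0.71 on the log2 scale on day 14. GLA, the lysosomal alpha-galactosidase, fell on all 5 days in TILD and passed on none in TULA. On day 14 GLA was between 12.2 and 21.6 CPM in TILD and between 11.2 and 32.8 in TULA, with medians of 15.4 and 22.6, after medians of 31.2 and 25.2 on day 0. The groups overlapped and the difference in change of -0.68 (-1.22 to -0.15) did not pass (FDR = 0.978).

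Genes of sterol and fatty acid synthesis rose more often than they fell. Of 25, 1, 8, 8, 9 and 13 rose in TILD and 7, 11, 14, 12 and 13 in TULA, and up to 4 fell on a day in either drug. NC had 3, 9, 15, 14 and 17 higher genes (0.042%, 1.88%, 17.6%, 14.7% and 18.5% of all genes). SREBF2, the transcription factor that drives cholesterol synthesis, rose on day 14 by 0.2 in TILD and 0.46 in TULA (log2), a difference of -0.26 (-0.47 to -0.05, FDR = 0.978), and MVD, a mevalonate pathway enzyme, by 0.81 in TILD with a change of 0.49 in TULA that did not pass. ABCA1, which exports cholesterol from cells and was chosen after its values were seen, fell in both drugs on day 21, by 1.58 in TILD and 0.74 in TULA on the log2 scale. The medians of ABCA1 were 23.8 and 8.32 CPM in TILD and 19.1 and 12.6 in TULA on days 0 and 21, and the difference in change was -0.84 (-1.35 to -0.34, FDR = 1).

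Genes of the mammalian translation machinery that changed mostly rose in both drugs. Of all genes 21.2% rose in each drug on day 14. Of 79 cytosolic ribosomal protein genes 1, 47, 49, 42 and 30 rose in TILD and 24, 53, 40, 45 and 41 in TULA, with 0 to 9 falling on a day. Their median change was 0.1, 0.43, 0.52, 0.34 and 0.24 in TILD and 0.32, 0.46, 0.39, 0.46 and 0.35 in TULA, and in NC 0.24, 0.32, 0.31, 0.29 and 0.32. RPLP0, of the ribosomal stalk, changed by 0.25 (not past the test), 0.33, 0.48, 0.46 and 0.26 in TILD and rose by 0.35, 0.35, 0.34, 0.49 and 0.43 in TULA. Of 77 mitochondrial ribosomal protein genes 13, 42, 47, 40 and 31 rose in TILD and 6, 17, 41, 37 and 29 in TULA, while 0, 0, 4, 9 and 4 fell in TILD and 0, 0, 7, 7 and 12 in TULA. The 13 genes encoded by mitochondrial DNA had 0, 0, 7, 10 and 0 members higher in TILD and 2, 1, 7, 9 and 9 in TULA. Their share of the counts on day 14 was 3.59% to 6.51% in TILD and 2.94% to 3.91% in TULA (FDR = 0.052, exact permutation test). The means differed by 1.2 percentage points, and by 0.616 in lane 2 alone. On day 0 the medians were already 3.2% and 2.63%, and the share did not pass on the other days (FDR = 0.357 to 0.931, same test).

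T cell genes rose more often than they fell, and monocyte genes fell more often than they rose from day 7 on. Of all genes 21.2% rose and 21.5% fell in TILD on day 14, and 21.2% and 20% in TULA. Of 31 T cell genes 5, 13, 12, 15 and 15 rose in TILD and 10, 15, 15, 16 and 16 in TULA, against 0, 7, 13, 12 and 14 in NC. Those that fell were 0, 2, 5, 6 and 2 in TILD and 1, 1, 4, 2 and 3 in TULA. CD3E, a chain of the T cell receptor complex, rose from a median of 592 CPM on day 0 to 980 on day 21 in TILD and from 537 to 888 in TULA, a log2 change of 0.71 and 0.7, and the difference of 0.01 had an interval from -0.22 to 0.24. WC1.3, a receptor of gamma delta T cells that resembles other WC1 genes and may share reads with them, rose on day 56 by 0.77 in TILD and 1.45 in TULA. That difference was -0.68 (-1.06 to -0.29, FDR = 1). Of 19 B cell genes 2, 6, 6, 9 and 7 rose and 0, 2, 4, 5 and 2 fell in TILD, and 1, 4, 7, 11 and 6 rose and 0, 0, 2, 2 and 3 fell in TULA. Of 18 genes of NK and cytotoxic cells 0, 4, 4, 5 and 4 rose and 2, 3, 7, 6 and 5 fell in TILD, and 1, 1, 3, 4 and 5 rose and 0, 2, 7, 5 and 7 fell in TULA. CD79A, of the B cell receptor, rose on days 7 to 56 in TILD and on days 14 to 56 in TULA. Of 17 monocyte genes 1, 9, 13, 10 and 9 fell in TILD, 1, 4, 9, 9 and 9 in TULA and 0, 4, 11, 4 and 8 in NC, where 0.021%, 2.62%, 15.5%, 13% and 15.6% of all genes fell. Monocyte genes that rose were 1, 1, 2, 2 and 1 in TILD and 0, 0, 1, 0 and 1 in TULA. CD163, the hemoglobin scavenger receptor, and VCAN, a proteoglycan of monocytes, were chosen after their values were seen. CD163 fell on day 14 by 1.92 in TILD and 1.42 in TULA (log2), and VCAN by 1.72 and 1.34. The secreted enzyme LYZ, the highest monocyte gene, fell on days 14, 21 and 56 in TILD and on day 21 in TULA.

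Neutrophil and inflammatory genes moved in both directions, but in TULA more of them fell than rose on each of the 5 days. All genes were split more evenly. Among all genes 4.41%, 13.5%, 21.2%, 22.5% and 17.3% rose and 3.97%, 13.2%, 21.5%, 24.8% and 16.9% fell in TILD. For TULA the shares were 3.76%, 7.55%, 21.2%, 22.6% and 18.9% higher and 4.89%, 7.04%, 20%, 21.4% and 18.6% lower. Of 31 neutrophil genes 2, 0, 5, 6 and 4 rose and 1, 8, 5, 5 and 6 fell in TILD, while 0, 0, 2, 2 and 1 rose and 4, 8, 6, 9 and 7 fell in TULA. The protease MMP25, the highest of them, rose on days 14 and 21 in TILD and on day 21 in TULA. Of 35 genes of cytokines and NF-kB signaling 2, 3, 6, 9 and 8 rose and 2, 8, 11, 14 and 10 fell in TILD, and 1, 1, 7, 5 and 6 rose and 6, 8, 11, 11 and 10 fell in TULA. Chosen after their values were seen, the cytokine TNF rose in both drugs on all 5 days, by 0.53 in each on day 14, and NFKBIA, the inhibitor of NF-kB, fell on all 5 days in TULA and on day 21 in TILD. On day 3 the NFKBIA change was -0.66 in TULA and -0.28 in TILD, with a difference of 0.37 (0 to 0.75, FDR = 1). Of 26 apoptosis genes 4, 7, 12, 12 and 13 fell in TILD and 7, 7, 11, 12 and 12 in TULA. Those that rose are not reported here. MCL1, which keeps neutrophils alive, fell in both drugs on all 5 days, by 0.61 in TILD and 0.7 in TULA on the log2 scale on day 21, and by 0.41 in NC.

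Eicosanoid genes moved in both directions, as did all genes at the shares given above. Of 25, 1, 3, 7, 9 and 8 rose and 1, 4, 3, 5 and 4 fell in TILD, and 1, 2, 5, 8 and 7 rose and 3, 4, 5, 6 and 5 fell in TULA. ALOX15, the 15-lipoxygenase of eosinophils, was among the 5 highest changes of the expressed genes on day 56. It was between 3.82 and 27.4 CPM in TILD on day 0, with a median of 5.09, and between 11.9 and 49.3 in TULA, with a median of 28.2. On day 56 it was between 20.7 and 250 CPM in TILD, with a median of 50.6, and between 33.5 and 201 in TULA, with a median of 96.4. ALOX15 rose by 2.95 in TILD, 1.76 in TULA and 2.68 in NC (log2), and the drugs overlapped on both days. The difference in change was 1.19 (0.3 to 2.08, FDR = 1). ALOX5 and IL5RA, a leukotriene synthesis enzyme and the interleukin 5 receptor of eosinophils, rose with it on day 56, by 1.95 and 1.77 in TILD and 1.72 and 1.24 in TULA.

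Glucocorticoid-responsive genes that changed mostly fell in both drugs from day 7 on, while the day 3 count depended on single steers. Of 16, 6, 11, 6, 10 and 10 fell in TILD, 4, 7, 8, 7 and 5 in TULA and 0, 2, 7, 5 and 7 in NC (0.021%, 2.62%, 15.5%, 13% and 15.6% of all genes), and 1, 1, 2, 1 and 1 rose in TILD and 0, 0, 1, 1 and 3 in TULA. On day 3 the 6 that fell in TILD became 1 without Tild2 or Tild3, 3 without Tild7 and 0 with no replicate block, and on day 56 the 10 became 6 without Tild2 and 5 without Tild3. In TULA the 5 that fell on day 56 became 3 without Tula3, Tula4, Tula5 or Tula6, and with no replicate block the counts were 0, 1, 3, 4 and 0. Counts of such groups without single steers or under other settings, here and for the interferon and erythroid genes, were added after seeing the data. TSC22D3, the glucocorticoid-induced leucine zipper, fell on days 7 and 56 in TILD and on days 3 and 7 in TULA. FKBP5, a chaperone partner of the glucocorticoid receptor chosen after its values were seen, fell on all 5 days in TILD and passed on none in TULA. Its levels were between 65.7 and 529 CPM in TILD on day 0, with a median of 152, and between 71.8 and 251 in TULA, with a median of 106. On day 3 they were between 74.6 and 174 in TILD and between 90.4 and 308 in TULA, with medians of 107 and 121 CPM. FKBP5 overlapped between the drugs on both days, and the difference in change of -1.01 (-1.72 to -0.29) did not pass (FDR = 1).

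In the remaining groups, as for nearly all genes, no member passed a test of the drugs against each other. Of 24 genes of histocompatibility class I and II, which present antigen, 3, 5, 7, 9 and 6 rose in TILD and 1, 2, 10, 8 and 6 in TULA, and 0 fell in either drug. Of 26 cell cycle genes 0, 0, 5, 5 and 4 fell in TILD, 0, 1, 12, 8 and 10 in TULA and 0, 3, 9, 6 and 22 in NC (beside the same shares of all genes), and the median difference in change was 0.1, 0.06, 0.21, 0.17 and 0.13. Of 5 gamma delta WC1 genes 1, 2, 3, 3 and 3 rose in TILD and 1, 2, 2, 2 and 2 in TULA. For the groups of the integrated stress response (22 genes), autophagy (26), immediate early and heat shock genes (24), eosinophils and basophils (11) and platelets (17), the median difference in change lay between -0.3 and 0.43 on the 5 days. Of genes from outside the blood, 0, 0, 6, 1 and 2 of 14 skin and hair genes rose in TILD and 0, 0, 0, 1 and 1 in TULA, at most 8 rose in NC, and at most 3 of 13 skeletal muscle genes rose on a day in either drug.

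**Figure D4:**
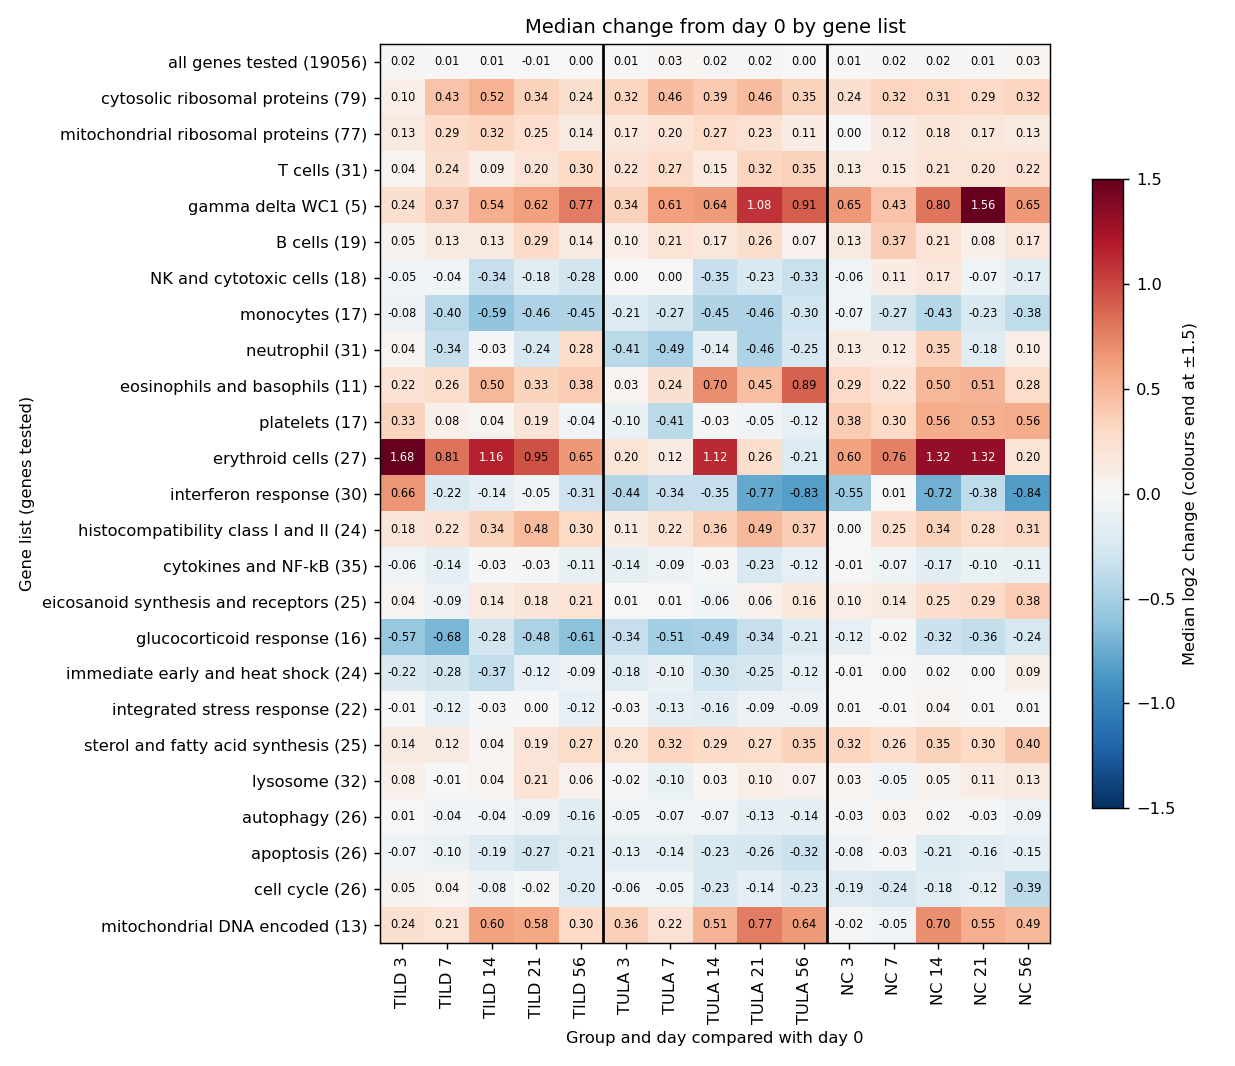
Median log2 change from day 0 to each later day over the tested genes of each list (rows, number of genes in brackets) in TILD, TULA and NC (columns), with red for higher and blue for lower levels than on day 0. Ribosomal protein and T cell lists are higher and the monocyte list lower in each group, while the erythroid and interferon lists differ between TILD and TULA by 1.36 and 1.08 on day 3.

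As for nearly all genes, no interferon-stimulated gene passed a test of TILD against TULA. The counts of interferon-stimulated genes within each drug differed and moved with single animals. Of 30, 0, 0, 8, 17 and 14 fell in TULA (4.89%, 7.04%, 20%, 21.4% and 18.6% of all genes), 0, 1, 3, 3 and 1 in TILD, and 0, 0, 15, 8 and 17 in NC (0.021%, 2.62%, 15.5%, 13% and 15.6% of all genes). The difference in change was positive for 30, 24, 26, 29 and 27 of the 30 genes on the 5 days, against 50.4%, 47%, 49.4%, 44.8% and 50.4% of all genes. Its median was 1.08, 0.31, 0.35, 0.81 and 0.63. The genes respond together, so they are not independent of each other, and on day 0 the median difference was already -0.72. The summed level of the group on day 0 was between 2400 and 5100 CPM in TILD and between 2980 and 17100 in TULA, with Tula7 at 17100 and the next TULA steer at 5100. On day 3 Tild7 was at 20700 CPM and the next TILD steer at 7250, on day 7 Tula5 was at 14600, and on day 14 Tula8 was at 11200. Without Tula7 the genes that fell in TULA were 0, 6 and 6 on days 14, 21 and 56 instead of 8, 17 and 14. The 8 of day 14 became 2 without Tula4, 3 without Tula3, 5 without Tula6, 18 without Tula8 and 2 with no replicate block, and without Tula5 11 fell on day 7. RSAD2, the antiviral protein viperin, was between 66.1 and 1100 CPM in TULA on day 0 and between 19.7 and 113 in TILD, and on day 21 the ranges were 10.7 to 55.2 and 8.22 to 129. RSAD2 fell in TULA by 2.87 on the log2 scale and had a change of -0.85 in TILD, a difference of 2.02 (0.16 to 3.89, FDR = 1).

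Counts of erythroid genes also moved with single animals. Of 27, 15, 7, 10, 14 and 5 rose in TILD (4.41%, 13.5%, 21.2%, 22.5% and 17.3% of all genes), 0, 0, 17, 5 and 2 in TULA and 0, 2, 18, 18 and 3 in NC. The difference in change had a median of 1.36, 0.85, 0.03, 0.85 and 0.71, and the difference on day 0 one of -1.27. The summed level on day 3 was 334000 CPM in Tild3 and between 1010 and 45300 in the other TILD steers, against 901 to 32100 in TULA. The 15 erythroid genes that rose in TILD on day 3 became 0 without Tild3, 5 without Tild2, 6 without Tild7, 7 without Tild8, 4 in lane 2 and 5 with no replicate block. The 7 of day 7 became 1 without Tild3 or Tild7, 3 without Tild8 or Tula4 and 4 without Tula7, and the 17 of TULA on day 14 became 9 without Tula8. The 14 of TILD on day 21 became 9 without Tild8, and the 5 of TULA on day 21 lay between 2 and 10 with 1 steer left out. On day 14, 5 of 6 TULA steers were between 72800 and 207000 CPM, and the TILD steers were between 4100 and 89300. HBB, the beta chain of hemoglobin, rose in TILD on day 3 (log2 3.31, FDR = 0.0674) with a change of 1.57 in TULA, and in both drugs on day 14 (3 and 3.99), and the differences in change were 1.74 (-1.24 to 4.72) and -0.99 (-3.85 to 1.87).

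**Figure D5:**
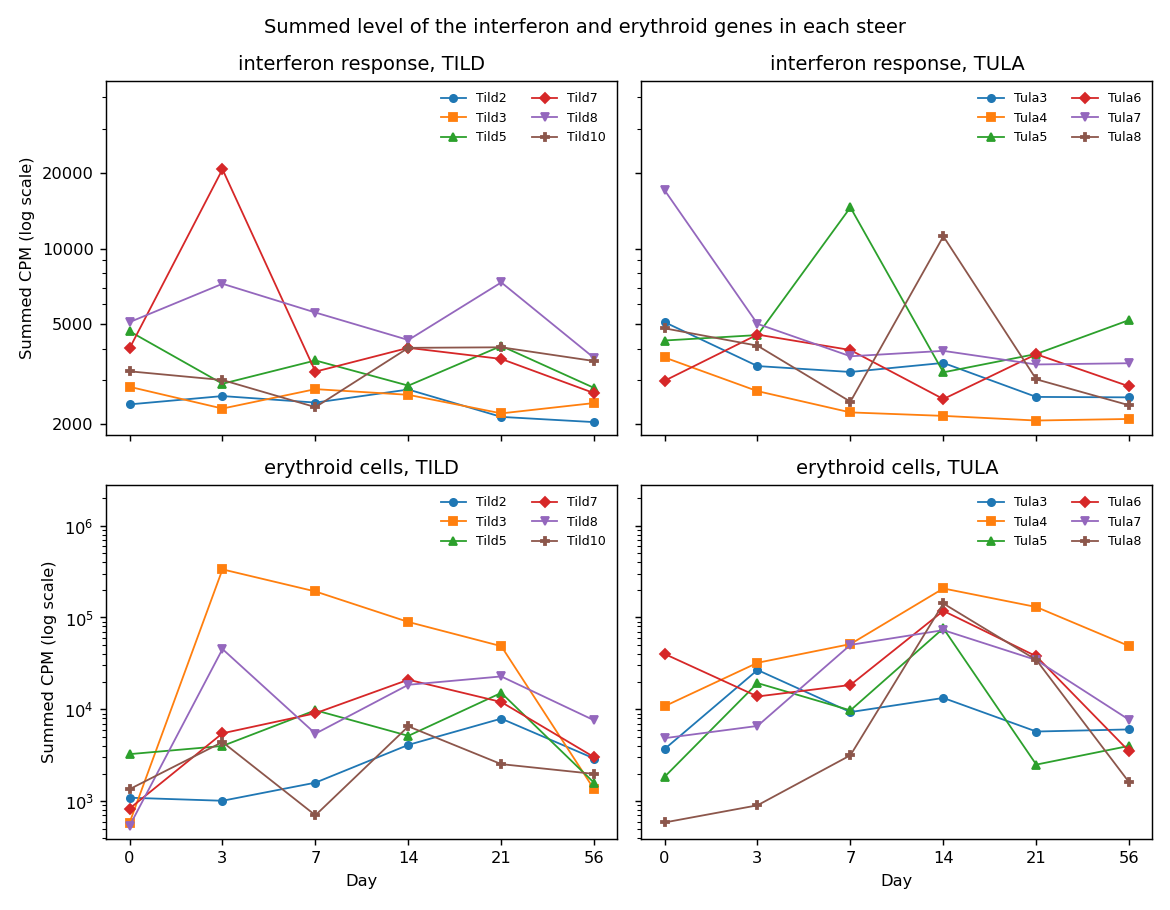
Summed CPM on a log scale (vertical axes) of the 30 interferon-stimulated genes (top) and the 27 erythroid genes (bottom) by day (horizontal axes), with a line for each steer of TILD (left) and TULA (right). Single steers stand out, such as Tula7 at 17100 CPM on day 0 and Tild7 at 20700 on day 3 for interferon genes, and Tild3 at 334000 on day 3 for erythroid genes.

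None of the genes that the study named for either drug passed a test of the drugs against each other. Few of all genes did, at most 0.042% on a day and 0.0105% in a change. Of the 16 named for TILD, 4, 10, 11, 14 and 10 fell in TILD and 4, 3, 13, 12 and 9 in TULA, and NC had 0, 0, 7, 5 and 7. These were chosen on the same samples, so their direction is not independent evidence. The tyrosine kinase JAK1 fell in TILD on day 7 and in TULA on day 14, and its differences in change were -0.85 and 0.36 (FDR = 0.924 and above). TAB2, an adaptor of NF-kB signaling chosen after its values were seen, fell on all 5 days in both drugs. Of the 3 named for TULA, 0, 1, 0, 0 and 0 rose and 0, 0, 2, 0 and 0 fell in TULA, and 0, 0, 1, 2 and 0 fell in TILD. Among them, the ubiquitin and ribosomal protein gene RPS27A rose on day 7 in TULA by 1.01 and had a change of 0.12 in TILD, then fell on day 14 in both (-1.07 in TILD and -0.96 in TULA), and the surface receptor CD48 fell on day 14 in TULA and on day 21 in TILD.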

How the data were processed

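The authors sequenced stranded mRNA libraries of PAXgene blood as paired-end reads on 3 lanes. Per the labels and the study's methods they used FastQC 0.11.9, Trimmomatic 0.39, HISAT2 to ARS-UCD1.3, StringTie 2.2.0 and prepDE, and the deposited counts are whole-number gene counts derived from transcript coverage, without normalization or lane adjustment. The study adjusted lanes with ComBat_seq, which was not part of the fits reported here. The filter kept 19056 of 33282 genes, those over 0.2 CPM in 12 or more of the 252 libraries. TMM scaling, edgeR 4.0.16 quasi-likelihood tests (R 4.3.3) and Benjamini-Hochberg adjustment over all genes at an FDR of 0.1 were used, with 6 against 6 steers per day, and 72 libraries with steer as a block for changes, and NC fitted apart. The mean level over days 3 to 56 used limma 3.58.1 (FDR 0.05). DESeq2 1.42.0, ComBat_seq from sva 3.50.0, lane 2 alone, other filters and scalings, other blocks and steers left out were alternatives, and the tests were checked on simulated counts. CPM values are TMM scaled. Gene types came from RefSeq (ARS-UCD2.0), which matched 83.1% of identifiers, and no coordinates were used. The libraries of a steer deviated together (median correlation 0.382 over 180 pairs of days, above 0.1 in 12 of 12 steers), since a steer is the same animal on every day, while equal numbers in TILD and TULA name different animals (-0.0263 over 24 pairs). Single values were compared by exact permutation tests, whose smallest p was 0.00216. 

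The members, the 28 gene lists and the tests were chosen with earlier results of these data known. Genes named were, for day and change tests, the 10 largest differences and 5 smallest p past the threshold with at least 1 CPM or, where fewer than 3 genes passed, the 3 smallest p, for changes within a drug the 5 highest and 5 lowest with at least 10 CPM, for the mean level the 10 smallest p, and for each list the members past a day or change test or else the 2 with the highest CPM. Others are marked as chosen after their values were seen. Breed, scored by eye in the study, was not used, and some genes that the rule names are not reported here.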

Additional observations from a re-analysis of the deposited data

Results flagged for a closer look

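Hemoglobin shares held most of the steers that stood far from the other 5 of their group and day. In TILD these were Tild5 on day 0 (0.245% of counts, next 0.0935%), Tild3 on days 3 (25.5%, next 4.38%), 7 (15%, next 0.929%) and 14 (8.17%, next 1.88%), and Tild8 on day 56 (0.704%, next 0.256%). In TULA they were Tula6 on day 0 (4.04%, next 1.04%) and Tula4 on days 21 (11%, next 3.43%) and 56 (4.52%, next 0.709%). The pseudogene LOC104972830 was highest in Tula6 in TULA on day 7 (0.26 CPM, next 0.146), and RAB3C in Tild10 in TILD on day 56 (4.75 CPM, next 1.54). In all, 10 of 60 groups of 6 steers held such a steer. No chance rate is set beside this, since hemoglobin shares are skewed and the groups reuse the same steers across days.

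The change from day 0 to day 56 differed between TILD and TULA for ODF3L2 (log2 -10.05, from 15 to 0 counts in TILD and from 0 to 40 in TULA) and for RAB3C (log2 -3.81), both by the test of the difference itself (FDR = 0.0868, edgeR).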

How the results depend on the processing

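Few differences between TILD and TULA held their number under other settings, and the cause was not tested except where fewer samples entered. In the 6 day tests, in order of time, ComBat_seq by lane gave 0 genes on day 0, 1 on day 3 and 0 on day 7. ComBat_seq with a likelihood ratio test gave 49, 48, 186, 134, 101 and 116, and DESeq2's Wald test 75, 162, 304, 943, 345 and 242. Lane 2 alone gave 0, 0, 3, 5, 0 and 4 with fewer steers. A fit with the NC libraries gave 0, 45, 21, 1 and 66 on days 0, 7, 14, 21 and 56. No filter gave 2 on day 3, and adjustment over all days together 2 on each of days 3, 7 and 14.

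A replicate block on the steer number, which names different animals in TILD and TULA, gave 0, 0, 0, 1 and 0 genes on days 0, 3, 7, 14 and 56. For the change from day 0, limma voom with a random replicate block gave 2 genes on day 7, 0 on day 56 and 973 for TILD on day 3. With no replicate block the change on day 56 differed for 1 gene, the group effect over days 3 to 56 covered 4370 genes, TILD changed in 84, 2729 and 3980 genes and TULA in 67, 499 and 4657 on days 3, 7 and 56, and the change of the histocompatibility gene JSP.1 reversed to -0.15 in TULA on day 3.

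The difference in change on day 56 had 0 genes in lane 2 alone, 1 with the NC libraries (added after seeing the data) and 0 when adjusted over 5 days. ComBat_seq with a likelihood ratio test gave 1 on day 3, 2 on day 14 and 6 jointly. In lane 2 TILD changed in 772 genes on day 3 and 3857 on day 56. The group effect covered 5328 genes without a filter and 310 with counts summed per steer (added after seeing the data, 242 shared).

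With 1 steer left out, the day tests gave 0 to 5, 1 to 12, 2 to 5, 0 to 309, 0 to 1 and 1 to 10 genes. The difference in change gave 0 to 0, 0 to 1, 0 to 0, 0 to 0 and 0 to 2, jointly 0 to 0 and for the mean 0 to 1, and the group effect 616 to 1045. TILD changed in 258 to 2424, 3902 to 5468, 6988 to 8243, 7676 to 9304 and 4968 to 6895 genes, and TULA in 913 to 1928, 1768 to 4056, 7003 to 7963, 7326 to 8503 and 5806 to 7314. The hemoglobin share differed by -1.11 to -0.302, -0.517 to 4.57, -1.79 to 1.2, -8.35 to -5.24, -2.62 to -0.47 and -1.03 to -0.151 percentage points, and it reversed without Tild3 on days 3 (-0.517) and 7 (-1.79). Over the genes named, 1796 of the alternative values kept direction and side of the threshold, 523 kept direction and lost the call, and 1 reversed. With 6 steers a drug, the intervals of genes below 10 CPM were wide.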
